A study of Homo sapiens with 6 samples.

Results

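The genes described here are 41 interferon-stimulated genes, a list of human genes that cells switch on after sensing interferon or viral nucleic acid. The list was chosen with earlier results of these data known. Its rows were found in the deposited tables by gene symbol, and all 41 symbols matched 1 row each of the 58735 genes listed. RNA was sequenced from H2452, an established human pleural mesothelioma cell line, in 3 sgCtrl and 3 sg*NF2*-1 libraries. Both groups carried a lentiviral vector expressing Cas9, mCherry and an sgRNA, with a scrambled sgRNA in sgCtrl (genotype given as WT) and an sgRNA against *NF2* in sg*NF2*-1 (genotype given as NF2-KO), and mCherry-positive cells had been sorted to establish the stable populations. The cells grew in RPMI-1640 with fetal bovine serum and antibiotics, and no interferon or other treatment is given. All members were therefore measured without a listed stimulus, but in transduced and sorted cells. No library of untransduced H2452 cells is in the series. A single *NF2* sgRNA was sequenced, so an effect of the guide and an effect of losing *NF2* cannot be told apart. The labels do not say whether the 3 libraries of a group came from separate cultures, and p-values measure the spread between these libraries only. In bulk RNA, fewer cells making a transcript and less of it per cell cannot be told apart.

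Type I interferons bind the IFNAR1 and IFNAR2 receptor chains, which activate the kinases JAK1 and TYK2. These phosphorylate STAT proteins, and STAT2 joins IRF9 in the complex ISGF3, which binds the interferon-stimulated response element (ISRE) in the promoters of target genes. Interferon gamma signals through STAT dimers at a different element, the gamma-activated site (GAS). The products of the target genes sense foreign RNA, block entry, replication and release of viruses, modify other proteins, and feed back on the pathway, and many tumor lines keep a part of the program active without added interferon.

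The libraries held 14782423 to 17416463 counts, and the members took 0.942 to 0.969% of the counts in sgCtrl and 0.713 to 0.801% in sg*NF2*-1. *NF2* itself, which encodes the Hippo pathway regulator merlin, had 1162, 1197 and 1025 counts in sgCtrl, against 692, 802 and 590 in sg*NF2*-1. Its level went from 71.4 ± 3.36 to 44.2 ± 6.77 CPM (counts scaled by the TMM-adjusted library total, mean ± SD, n = 3), with a log2 fold change of -0.69 ± 0.10 (SE; edgeR quasi-likelihood test, adjusted p = 7.9e-06), so the transcript fell to 62.0% but was still present. Values for the members are given in the same form, and whether groups overlap was read on the CPM. All 7 mesothelial markers on the list were detected, with a summed level of 1394 to 1561 CPM in sgCtrl and 1255 to 1511 CPM in sg*NF2*-1. That sum covers changes in both directions by edgeR's adjusted p, since *KRT19* (566 ± 41.5 to 296 ± 44.1 CPM), *PDPN* (67.9 ± 3.41 to 28.0 ± 3.93 CPM) and *WT1* (10.0 ± 1.41 to 4.86 ± 0.775 CPM) fell while *KRT18* (797 ± 54.0 to 966 ± 89.2 CPM) and *MSLN* (36.4 ± 2.89 to 57.6 ± 6.64 CPM) rose. The leukocyte marker *PTPRC* had no count in any library. The summed level of the 6 leukocyte markers, 134 to 148 CPM in sgCtrl and 64.1 to 70.8 CPM in sg*NF2*-1, was nearly all *CD14* (139 ± 7.76 to 66.9 ± 3.41 CPM), and that of 3 endothelial markers was 6.19 to 8.53 CPM and 1.93 to 3.24 CPM, mostly *PECAM1*. Both sums moved the way the members' sum did, and their part in the members' result was not tested.

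The 41 members were on the whole lower in sg*NF2*-1, but the change was uneven. It did not extend to interferon-stimulated genes in general. Of 28 others tested, described below, 8 fell and 6 rose, with a median log2 fold change of 0.01. Of the 41 members, all of which passed the filter on low counts, 20 fell, 4 rose and 17 did not pass an adjusted p of 0.05 in edgeR. Thus 48.8% fell, against 16.6% of all 14179 tested genes, and 9.76% rose, against 17.7% of all tested genes. The median log2 fold change was -0.21 (quartiles -0.48 and -0.03) with 31 of 41 members (75.6%) below 0, beside a median of -0.00 (quartiles -0.28 and 0.25) and 50.3% below 0 over all tested genes. The largest falls were in *IFI44L*, *IFI6*, *IFI44*, *TRIM22* and *BST2*, to between 38.3% and 56.7% of the sgCtrl level, while *IRF1*, *IFIT2*, *OASL* and *DTX3L* rose and *MX1*, *MX2* and *IFIT1* had log2 fold changes between -0.10 and 0.02.

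The same count was read in other ways. The levels of the 2 groups did not overlap for 20 members that were lower and 5 that were higher (48.8% and 12.2%), against 22.2% and 23.2% of all tested genes. Among the 39 members with a mean of at least 10 CPM, 20 fell (51.3%) and 4 rose (10.3%), against 18.7% and 22.9% of the 8970 tested genes at that level. The rule in the study's methods asks for a log2 fold change over 0.5 in size and an unadjusted p below 0.05. The study used DESeq2 values, and the rule was applied here to edgeR values. By it 8 of 41 members were lower and 1 was higher, against 10.8% and 9.22% of all tested genes. On the deposited FPKM (fragments scaled by gene length and library depth), limma on log2(FPKM + 1) called 17 lower and 3 higher, against 14.1% and 14.3% of 13038 genes, and 37 of the 41 members had the same call there as in edgeR. Leaving out 1 library at a time gave 16 to 19 lower and 3 to 5 higher members, the lowest count of lower members without sg*NF2*-1 replicate 2.

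**Figure D1:**
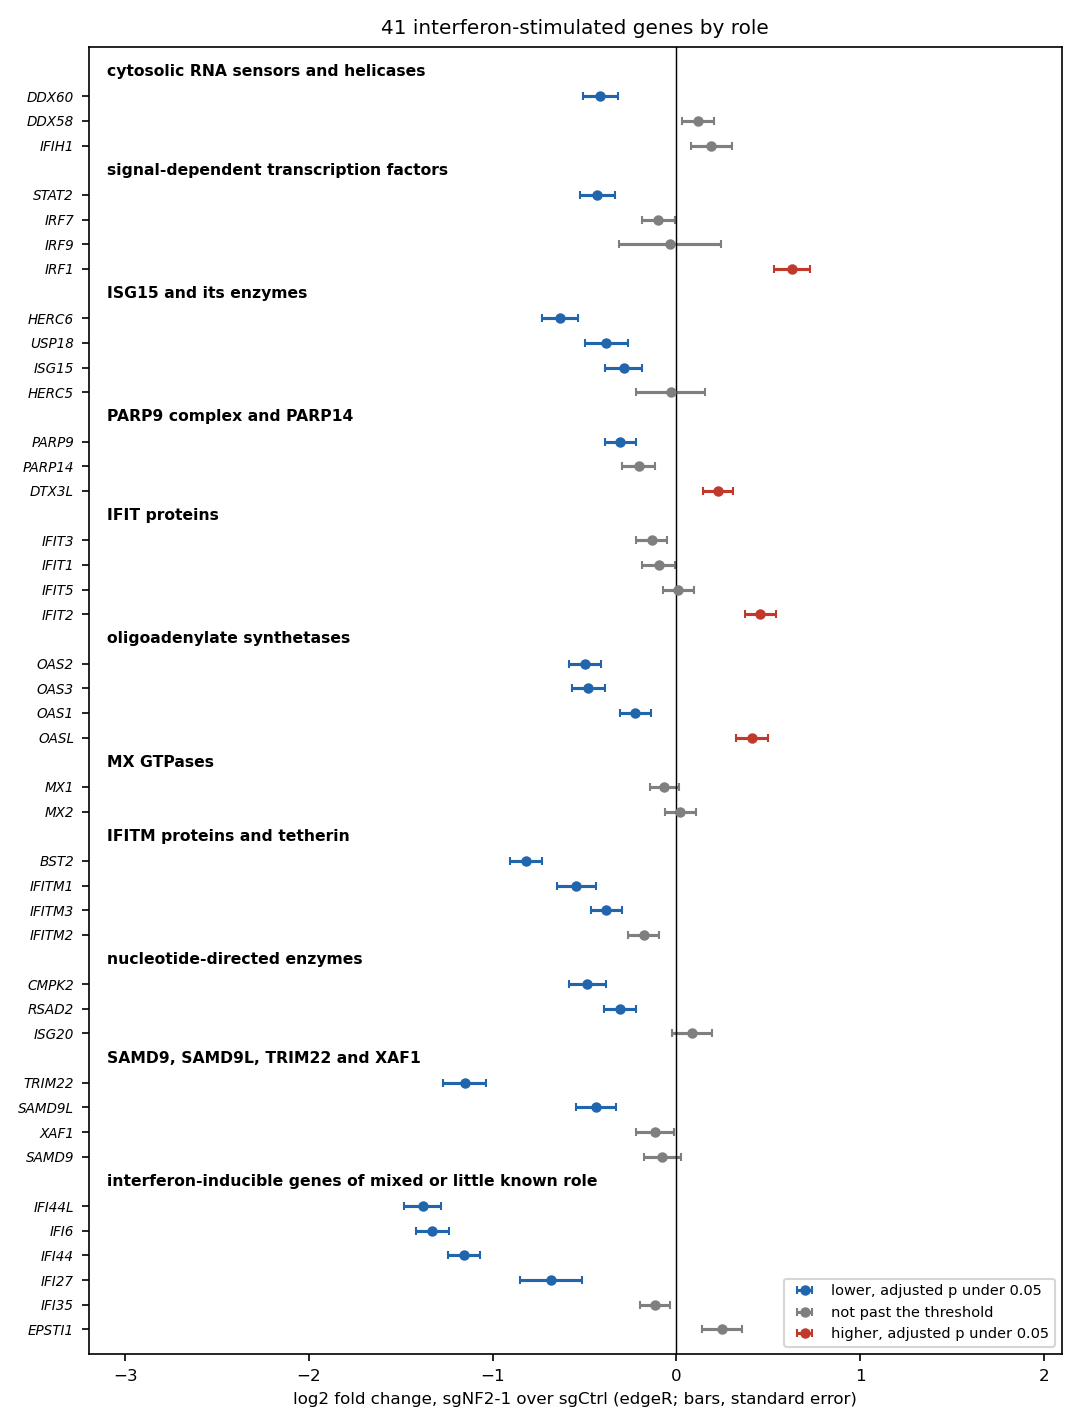
Log2 fold change of each of the 41 members (horizontal axis, edgeR, sg*NF2*-1 over sgCtrl) with its standard error as a bar, grouped by role on the vertical axis. The 20 members in blue fell, the 4 in red rose and the 17 in gray did not pass an adjusted p of 0.05, and most roles hold members of more than 1 color.

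The letters of the ISRE stand in many of the members' promoters, both among members that fell and among members without a call. RefSeq promoters (GRCh38.p14, 250 bases before to 50 after the start) were found for 33 of 41 members, and those of *IRF7*, *USP18*, *IFIT2*, *OAS2*, *OASL*, *MX2*, *IFITM2* and *TRIM22* were not analysed here. The ISRE core, searched on both strands as GAAA, any 2 bases and GAAA, was present in 21 of 33 members (63.6%) and in 1255 of all 35116 promoters of that length (3.57%). It stood in 10 of 17 members that fell, in 10 of 14 without a call and in 1 of 2 that rose. These 2 were *DTX3L*, with a match, and *IRF1*, without, too few to describe the members that rose. The GAS core, searched as TTCNNNGAA on both strands, was in 10 of 33 members (30.3%) and in 7.66% of all promoters, and 6 members held both. The 2 searches can match overlapping letters. The 39 ISRE matches began between 164 bases before and 11 bases after the start. The RefSeq start can differ from the first base of the gene in the deposited table, and a match is a description of the letters, not of a bound site.

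The stretches below are read 5′ to 3′ on the gene's own strand, with the match in capitals. They were picked from promoters that hold a match, for some members that fell, did not pass the test or rose. *HERC6*, which also fell, held neither core and is not shown. A match on the opposite strand reads TTTC, any 2 bases and TTTC.
IFI6 (chr1:27672264-27672360, minus strand, fell): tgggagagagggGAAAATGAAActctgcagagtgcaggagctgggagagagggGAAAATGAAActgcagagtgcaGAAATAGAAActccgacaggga
IFI44L (chr1:78620272-78620396, plus strand, fell): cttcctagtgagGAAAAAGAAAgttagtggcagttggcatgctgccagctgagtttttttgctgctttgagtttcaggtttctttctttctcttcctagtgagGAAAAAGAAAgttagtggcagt
IFI44 (chr1:78649759-78649792, plus strand, fell): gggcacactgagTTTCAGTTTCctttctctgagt
BST2 (chr19:17405733-17405772, minus strand, fell): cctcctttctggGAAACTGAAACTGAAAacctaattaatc
IFI27 (chr14:94110616-94110662, plus strand, fell): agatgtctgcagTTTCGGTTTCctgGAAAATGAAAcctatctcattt
IFIT3 (chr10:89327829-89327896, plus strand, no call): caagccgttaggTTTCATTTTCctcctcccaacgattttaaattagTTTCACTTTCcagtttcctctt
IFIT1 (chr10:89392495-89392541, plus strand, no call): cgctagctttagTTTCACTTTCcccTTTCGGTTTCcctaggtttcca
DTX3L (chr3:122564320-122564353, plus strand, rose): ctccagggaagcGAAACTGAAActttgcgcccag
IRF1 (chr5:132490877-132490909, minus strand, rose, GAS core): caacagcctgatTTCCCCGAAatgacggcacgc
The *IFI6* stretch holds 3 ISRE matches, and its promoter contains an exact repeat of 29 bases that begins 173 and again 132 bases before the start. The *IFI44L* promoter contains an exact repeat of 85 bases beginning 189 and 98 bases before the start, so both of its ISRE matches lie in copies of the same sequence. *BST2* has 2 overlapping matches, and *IFI27*, *IFIT3* and *IFIT1* have 2 each. *IFIT3* and *IFIT1*, without a call, thus hold as many matches as *BST2* and *IFI27*, which fell.

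*IFI44L*, *IFI6* and *IFI44*, the members with the largest falls, belong to a set of interferon-inducible genes of mixed or little known role. In this set 4 of 6 fell, where 16.6% of all tested genes did. *IFI6* (ENSG00000126709, chr1:27666061-27672218) encodes a small hydrophobic membrane protein. It had 12911, 11608 and 12129 counts in sgCtrl, against 5523, 4253 and 4798 in sg*NF2*-1. Each sg*NF2*-1 library was below every sgCtrl library, and the mean went from 775 ± 59.7 to 309 ± 31.0 CPM, 2.51-fold lower (log2 fold change -1.33 ± 0.09, adjusted p = 3.9e-11). *IFI44L* (chr1:78619922-78646145) and *IFI44* (chr1:78649796-78664078), related genes whose products are described as antiviral, lie next to each other, 3651 bases apart. *IFI44L* had 1142, 1374 and 1244 counts in sgCtrl and 600, 458 and 391 in sg*NF2*-1, from 79.4 ± 6.06 to 30.4 ± 3.38 CPM (log2 fold change -1.38 ± 0.10, adjusted p = 1.1e-10). *IFI44* had 1561, 1528 and 1364 counts in sgCtrl and 761, 643 and 592 in sg*NF2*-1, from 94.0 ± 4.65 to 42.2 ± 0.943 CPM (log2 fold change -1.16 ± 0.09, adjusted p = 2.1e-10). For neither gene did a library of one group reach the level of the other group.

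*IFI27*, whose product is found at the nuclear envelope and mitochondria, was much more variable within groups, with 11761, 9153 and 6947 counts in sgCtrl and 7871, 3507 and 6027 in sg*NF2*-1. The sgCtrl libraries alone spanned 458 to 746 CPM, and the highest sg*NF2*-1 library, at 447 CPM, was just under the lowest of these. The mean went from 587 ± 146 to 366 ± 121 CPM (log2 fold change -0.68 ± 0.17, adjusted p = 0.0025). The call was lost in DESeq2 (adjusted p = 0.13) and on the FPKM scale (limma adjusted p = 0.085). *IFI35* had 2073 to 2149 counts in sgCtrl and 1795 to 2141 in sg*NF2*-1 (log2 fold change -0.12 ± 0.08, adjusted p = 0.29). *EPSTI1* had 404 to 508 counts in sgCtrl and 464 to 651 in sg*NF2*-1 and was higher on CPM in every sg*NF2*-1 library without passing the test (log2 fold change 0.25 ± 0.11, adjusted p = 0.079), and it passed only without sgCtrl replicate 1 (edgeR adjusted p = 0.035).

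Genes around *IFI44L* and *IFI44* were read as well. The 9 other tested genes within 1 Mb on chromosome 1 all had a log2 fold change below 0, from -1.36 in *PTGFR* to -0.12, with a median of -0.50, and 5 of them (55.6%) fell by edgeR's adjusted p, against 16.6% of all tested genes. These genes are not on the list of interferon-stimulated genes, and whether the region's level and the level of *IFI44L* and *IFI44* share a source was not tested.

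**Figure D2:**
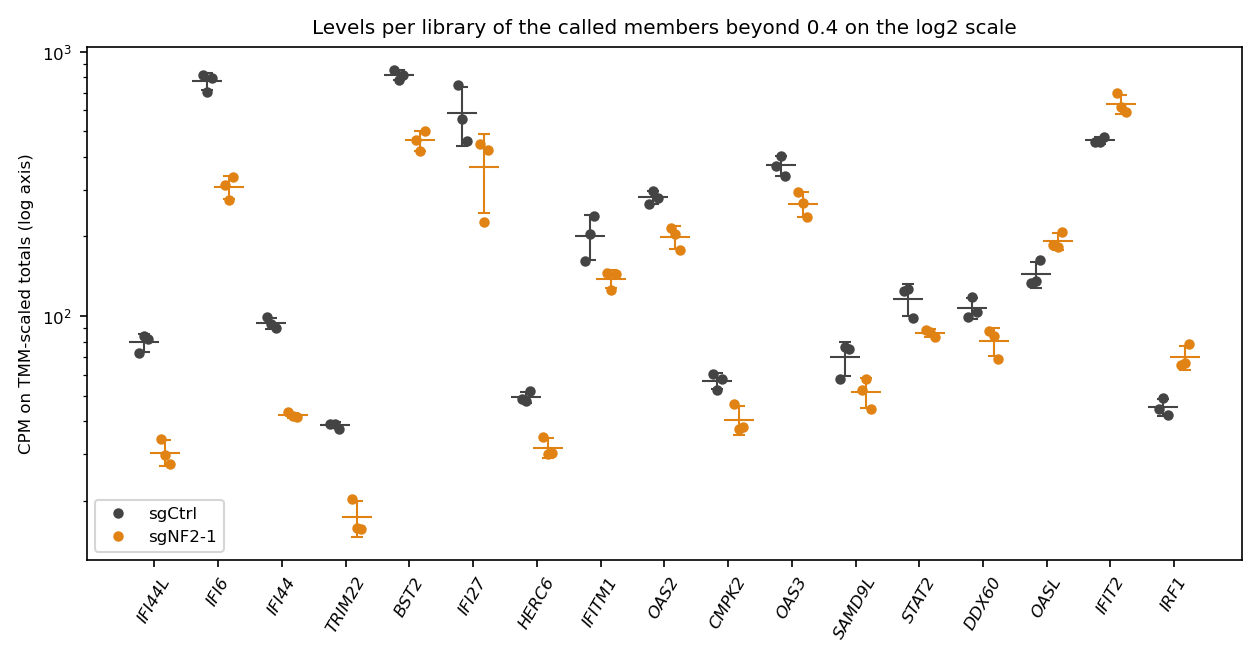
CPM of each library (vertical log axis) for the 17 members that passed the test with a log2 fold change beyond 0.4 in either direction, ordered from the largest fall to the largest rise, with the mean and SD of 3 libraries per group. The sgCtrl (dark) and sg*NF2*-1 (orange) libraries do not overlap for any of the 17, although those of *SAMD9L* (lowest sgCtrl library 57.80 CPM, highest sg*NF2*-1 library 57.73 CPM) and *IFI27* come close.

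Of 4 genes whose products stop viruses at membranes, 3 fell, where 16.6% of all tested genes did. *BST2* (tetherin, chr19:17402939-17405648), which holds budding virus particles at the cell surface, had 13401, 12814 and 12407 counts in sgCtrl and 8145, 6516 and 7155 in sg*NF2*-1. Its groups lay far apart, with a mean that went from 816 ± 34.8 to 462 ± 40.1 CPM (log2 fold change -0.82 ± 0.09, adjusted p = 5.3e-08). The IFITM proteins hinder fusion of viral with cellular membranes. *IFITM3* had 17724, 18208 and 17894 counts in sgCtrl and 14499, 13024 and 13571 in sg*NF2*-1, from 1138 ± 36.7 to 874 ± 69.5 CPM (log2 fold change -0.38 ± 0.09, adjusted p = 0.0011), and its groups did not overlap. *IFITM1* had 2540, 3364 and 3617 counts in sgCtrl and 2554, 1939 and 2047 in sg*NF2*-1, from 201 ± 38.7 to 138 ± 10.9 CPM (log2 fold change -0.54 ± 0.11, adjusted p = 0.00025). *IFITM2* had 4428 to 4777 counts in sgCtrl and 3904 to 4126 in sg*NF2*-1 and lay lower in every sg*NF2*-1 library, but did not pass the test (log2 fold change -0.18 ± 0.08, adjusted p = 0.11). With library totals in place of TMM it passed (edgeR adjusted p = 0.049). The IFITM genes are close in sequence and *IFITM1* lies within the annotated span of *IFITM2* on the same strand, so the split of reads among the family is uncertain.

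The oligoadenylate synthetases did not move together. OAS1, OAS2 and OAS3 make oligoadenylate messengers when they bind double-stranded RNA, whereas OASL lacks that activity and promotes RIG-I signaling. *OAS2* had 4194, 4890 and 4235 counts in sgCtrl and 3774, 3164 and 2523 in sg*NF2*-1, from 281 ± 16.0 to 199 ± 19.4 CPM (log2 fold change -0.50 ± 0.09, adjusted p = 6.3e-05). *OAS3* had 5845, 6638 and 5142 counts in sgCtrl and 5187, 4127 and 3372 in sg*NF2*-1, from 371 ± 32.8 to 266 ± 29.0 CPM (log2 fold change -0.48 ± 0.09, adjusted p = 0.00019). Neither had overlapping groups. *OAS1* had 2543 to 2887 counts in sgCtrl and 2095 to 2743 in sg*NF2*-1 and a smaller change (log2 fold change -0.22 ± 0.08, adjusted p = 0.039), which was lost without a filter on low counts (adjusted p = 0.093) and without sgCtrl replicate 2 or 3 or any one of the sg*NF2*-1 libraries (edgeR adjusted p of 0.087, 0.16, 0.066, 0.14 and 0.078, in that order). The call of *OAS1* was also lost on the FPKM scale (limma adjusted p = 0.054). *OASL*, in contrast, had 2107, 2231 and 2472 counts in sgCtrl and 3261, 2814 and 2965 in sg*NF2*-1. It rose from 144 ± 16.3 to 192 ± 14.2 CPM (log2 fold change 0.41 ± 0.09, adjusted p = 0.00077), with no sgCtrl library as high as the lowest sg*NF2*-1 library.

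Among the IFIT proteins, which bind the ends of foreign RNA, 1 of 4 rose and none fell. Of all tested genes 17.7% rose and 16.6% fell, and counts over 4 genes do not set the family apart from these shares. *IFIT2* (chr10:89283694-89309276) had 7173, 7461 and 7247 counts in sgCtrl and 12242, 9517 and 8436 in sg*NF2*-1. Its level went from 462 ± 13.1 to 635 ± 54.0 CPM (log2 fold change 0.46 ± 0.08, adjusted p = 0.00014), and the groups did not overlap. *IFIT3*, 18618 bases away on the same strand, had 7412 to 7985 counts in sgCtrl and 6174 to 8420 in sg*NF2*-1 (log2 fold change -0.13 ± 0.08, adjusted p = 0.22). *IFIT1* had 6020 to 6880 counts in sgCtrl and 5322 to 7147 in sg*NF2*-1 (log2 fold change -0.10 ± 0.09, adjusted p = 0.44) and *IFIT5* had 1162 to 1207 counts in sgCtrl and 1036 to 1411 in sg*NF2*-1 (log2 fold change 0.01 ± 0.08, adjusted p = 0.95). The groups of these 3 overlapped. *IFIT1*, *IFIT2* and *IFIT3* lie inside the span of *LIPA*, which runs on the opposite strand with a mean of 3255 counts in sgCtrl and 3176 in sg*NF2*-1. Whether counting used strand is not given in the sources used here.

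*MX1* and *MX2*, dynamin-like GTPases that trap viral components, did not pass the test. *MX1* had 8454, 8922 and 8388 counts in sgCtrl and 9555, 7811 and 7293 in sg*NF2*-1, from 544 ± 8.21 to 520.4 ± 19.8 CPM (log2 fold change -0.06 ± 0.08, adjusted p = 0.57). *MX2* had 2083 to 2345 counts in sgCtrl and 1980 to 2764 in sg*NF2*-1 (log2 fold change 0.02 ± 0.08, adjusted p = 0.87). The libraries of the 2 groups overlapped for both genes.

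Of the transcription factors that carry the signal, *IRF1* rose and *STAT2* fell. *IRF1* (chr5:132481609-132490798), a factor induced most strongly by interferon gamma, had 700, 801 and 639 counts in sgCtrl and 1143, 1028 and 1114 in sg*NF2*-1. It went from 45.1 ± 3.40 to 69.9 ± 7.23 CPM (log2 fold change 0.63 ± 0.10, adjusted p = 1.5e-05), the highest log2 fold change among the members. A noncoding gene on the opposite strand, *C5orf56*, overlaps it with a mean of 137 counts in sgCtrl and 177 in sg*NF2*-1. *STAT2* had 1953, 2083 and 1487 counts in sgCtrl and 1560, 1344 and 1186 in sg*NF2*-1, from 116 ± 15.9 to 86.3 ± 2.76 CPM (log2 fold change -0.43 ± 0.09, adjusted p = 0.00083), with no overlap of the groups. *IRF7*, the factor that drives interferon alpha genes, had 2011 to 2104 counts in sgCtrl and 1710 to 2065 in sg*NF2*-1 (log2 fold change -0.10 ± 0.09, adjusted p = 0.42). *IRF9* had only 29 to 70 counts in sgCtrl and 37 to 57 in sg*NF2*-1 (log2 fold change -0.03 ± 0.28, adjusted p = 0.94), the lowest level of the 41, and at that depth its standard error left room for a change in either direction.

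The cytosolic sensors of RNA, RIG-I (*DDX58*) and MDA5 (*IFIH1*), did not pass the test. *DDX58* had 1383 to 1528 counts in sgCtrl and 1409 to 1939 in sg*NF2*-1 (log2 fold change 0.12 ± 0.09, adjusted p = 0.30), and *IFIH1* had 712 to 1008 counts in sgCtrl and 820 to 1169 in sg*NF2*-1 (log2 fold change 0.19 ± 0.11, adjusted p = 0.20). *IFIH1* passed, as higher, only without sgCtrl replicate 1 (edgeR adjusted p = 0.017). *DDX60*, a helicase that has been linked to RIG-I signaling, fell with 1560, 1932 and 1576 counts in sgCtrl and 1542, 1293 and 983 in sg*NF2*-1, from 107 ± 9.71 to 80.1 ± 9.82 CPM (log2 fold change -0.41 ± 0.10, adjusted p = 0.0014), and its groups did not overlap.

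ISG15 is a ubiquitin-like protein that is joined to other proteins by ligases such as HERC5 and removed by USP18, which also restrains the interferon receptor. *ISG15* (chr1:1001138-1014540) had 7488, 6595 and 7574 counts in sgCtrl and 6570, 4947 and 6195 in sg*NF2*-1, from 459 ± 50.7 to 376 ± 57.3 CPM (log2 fold change -0.29 ± 0.10, adjusted p = 0.029). Its groups overlapped, and the call was lost without sgCtrl replicate 1 or 3 or without sg*NF2*-1 replicate 1 or 2 (edgeR adjusted p of 0.087, 0.12, 0.093 and 0.23, in that order). It was also lost on the FPKM scale (limma adjusted p = 0.13). *USP18* had 474, 437 and 410 counts in sgCtrl and 417, 296 and 304 in sg*NF2*-1 (log2 fold change -0.38 ± 0.11, adjusted p = 0.012), and its call was lost without sgCtrl replicate 1 or sg*NF2*-1 replicate 2 (edgeR adjusted p of 0.061 and 0.086, in that order). *HERC6*, a relative of *HERC5*, had 764, 779 and 789 counts in sgCtrl and 613, 464 and 432 in sg*NF2*-1. It fell from 49.3 ± 2.38 to 31.7 ± 2.68 CPM with no overlap of the groups (log2 fold change -0.63 ± 0.10, adjusted p = 2.1e-05). *HERC5* had 95 to 105 counts in sgCtrl and 71 to 136 in sg*NF2*-1 (log2 fold change -0.03 ± 0.19, adjusted p = 0.92).

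PARP9 and DTX3L form a complex that joins ADP-ribosylation with ubiquitin ligation. Their genes lie head to head on opposite strands, and their annotated ends overlap (chr3:122527924-122564577 and chr3:122564238-122575203). *PARP9* had 2225, 2439 and 2416 counts in sgCtrl and 2291, 1857 and 1602 in sg*NF2*-1, from 149.7 ± 9.07 to 121 ± 8.87 CPM (log2 fold change -0.31 ± 0.08, adjusted p = 0.0062). *DTX3L* had 3117, 3552 and 3201 counts in sgCtrl and 4610, 3812 and 3157 in sg*NF2*-1, from 208 ± 9.58 to 244 ± 20.4 CPM (log2 fold change 0.23 ± 0.08, adjusted p = 0.037). On CPM, the first was lower and the second higher in every sg*NF2*-1 library. The call of *DTX3L* was lost with library totals in place of TMM (adjusted p = 0.071) and without sgCtrl replicate 1 or 2 or sg*NF2*-1 replicate 1 or 2 (edgeR adjusted p of 0.15, 0.060, 0.19 and 0.11, in that order). It was also lost on the FPKM scale (limma adjusted p = 0.089). *PARP14*, a mono-ADP-ribosyltransferase, had 3020 to 3669 counts in sgCtrl and 2199 to 3412 in sg*NF2*-1 (log2 fold change -0.21 ± 0.09, adjusted p = 0.081), and it passed the test only with the replicate number as a block (edgeR adjusted p = 0.040).

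Of the nucleotide-directed enzymes, *CMPK2*, a mitochondrial nucleotide kinase, and *RSAD2*, which encodes viperin, the enzyme that turns CTP into a chain terminator, fell. *CMPK2* had 949, 860 and 876 counts in sgCtrl and 815, 576 and 540 in sg*NF2*-1, from 56.8 ± 3.99 to 40.5 ± 5.03 CPM (log2 fold change -0.48 ± 0.10, adjusted p = 0.00058). *RSAD2* had 2081, 2247 and 2220 counts in sgCtrl and 2220, 1660 and 1452 in sg*NF2*-1, from 138 ± 7.25 to 112 ± 12.7 CPM (log2 fold change -0.31 ± 0.09, adjusted p = 0.0090), a call lost without sg*NF2*-1 replicate 2 (edgeR adjusted p = 0.051). The groups did not overlap for either gene. The annotated spans of *CMPK2* (chr2:6840570-6866635) and *RSAD2* (chr2:6865806-6898239) overlap on opposite strands, so the split of reads between them is uncertain. The exonuclease gene *ISG20* had 665 to 896 counts in sgCtrl and 709 to 904 in sg*NF2*-1 (log2 fold change 0.09 ± 0.11, adjusted p = 0.57).

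In the remaining set, *TRIM22* and *SAMD9L* fell. *TRIM22* (chr11:5689689-5737089), a ubiquitin ligase that restricts several viruses, had 617, 642 and 567 counts in sgCtrl and 358, 244 and 223 in sg*NF2*-1. Its level went from 38.5 ± 1.02 to 17.3 ± 2.66 CPM (log2 fold change -1.15 ± 0.12, adjusted p = 3.0e-08), and the groups did not overlap. *TRIM5*, a gene of the same family annotated across *TRIM22* on the opposite strand, also fell (-0.59 on the log2 scale). *SAMD9L* had 911, 1248 and 1142 counts in sgCtrl and 922, 891 and 631 in sg*NF2*-1, from 69.7 ± 10.3 to 51.5 ± 6.76 CPM (log2 fold change -0.44 ± 0.11, adjusted p = 0.0030), while its neighbor *SAMD9* had 1751 to 2503 counts in sgCtrl and 1938 to 2339 in sg*NF2*-1 (log2 fold change -0.08 ± 0.10, adjusted p = 0.61). Both encode inhibitors of translation and growth. *XAF1*, whose product binds the apoptosis inhibitor XIAP, had 740 to 983 counts in sgCtrl and 631 to 1002 in sg*NF2*-1 (log2 fold change -0.11 ± 0.10, adjusted p = 0.42).

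Many members lie beside each other in the genome, and some neighbors differed in direction. Of 14 pairs of neighboring members within 200 kb, the ratio of their counts did not overlap between the groups in 6 (42.9%), which is near the 40.9% of 12179 pairs of neighboring tested genes. These 6 pairs are described for their values and do not set the members apart from other neighboring genes. The ratio of *IFIT3* to *IFIT2* was lower in sg*NF2*-1, by a log2 difference of -0.59 with an SD of 0.05 in either group. The ratio of *DTX3L* to *PARP9* was higher by 0.53 on that scale, with SDs of 0.07 (sgCtrl) and 0.03 (sg*NF2*-1). The ratio of *HERC5* to *HERC6* was higher by 0.57 with larger SDs of 0.09 and 0.21. That of *IFI44* to *IFI44L*, the pair with the largest falls, overlapped between the groups. The same held for the ratios among *OAS1*, *OAS3* and *OAS2* and between *MX2* and *MX1*.

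**Figure D3:**
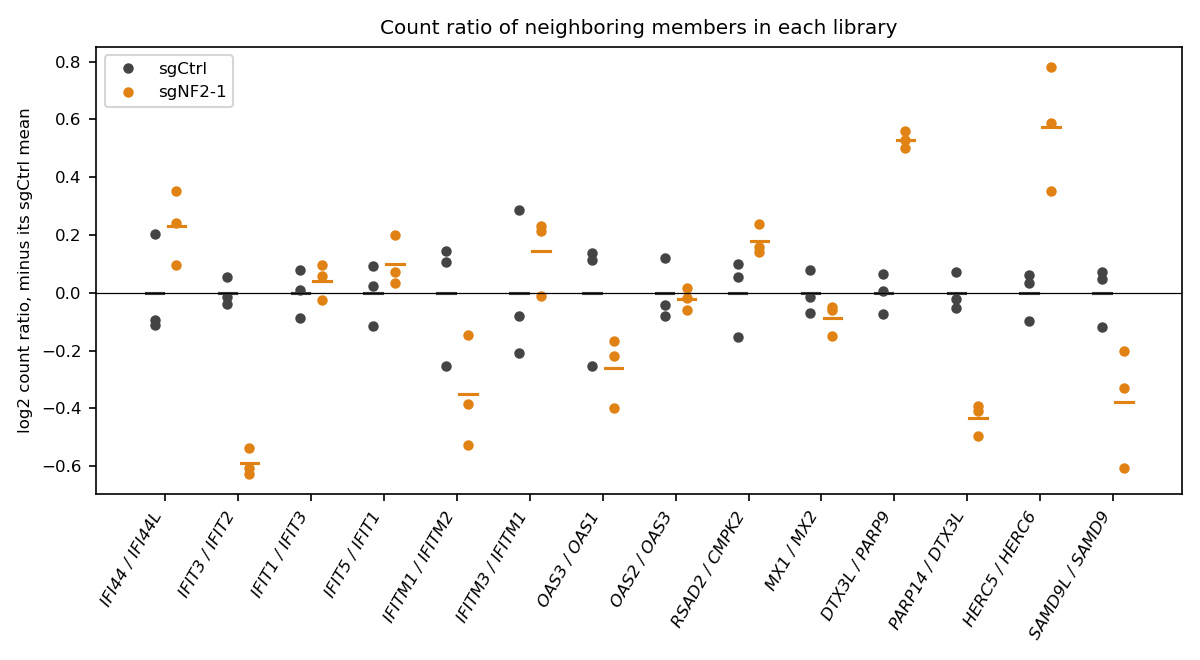
Log2 ratio of the counts of 14 pairs of neighboring members in each library, minus the sgCtrl mean of the pair (vertical axis), with points for libraries and a line for the mean of 3. The groups stand apart for *IFIT3* over *IFIT2*, *RSAD2* over *CMPK2*, *DTX3L* over *PARP9*, *PARP14* over *DTX3L*, *HERC5* over *HERC6* and *SAMD9L* over *SAMD9*, and overlap for the other 8.

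Levels of different members can be set beside each other per length, as FPKM. In sgCtrl the members ranged from 0.768 FPKM (*IRF9*) to 849 FPKM (*IFI6*), with a median of 20.4. *IFI6*, *IFITM3*, *BST2* and *ISG15* held ranks 29, 32, 36 and 55 by mean sgCtrl FPKM among all 58735 genes listed. The 41 members summed to 4319 ± 178 FPKM in sgCtrl, against 3026 ± 195 in the sg*NF2*-1 libraries (mean ± SD, n = 3). The share of these 4 genes was 64.9% ± 1.15 of the sgCtrl sum, against 56.4% ± 2.12 of the sg*NF2*-1 sum. They accounted for 84.7% of the fall in the sum, of which *IFI6* alone gave 39.8%, *BST2* 23.4%, *IFITM3* 14.8% and *ISG15* 6.68%. The fall of *ISG15* did not pass the test on this scale (limma adjusted p = 0.13). The sum over the other 37 members went from 1517 to 1319 FPKM. On FPKM the level of the whole list was thus set by a few abundant genes, and its fall does not describe the members one by one. These shares hold for FPKM only. The 4 genes are short (865 to 1348 bases), and their share is smaller on CPM, which does not divide by length. The CPM sum of the 41 members went from 9435 ± 195 to 7601 ± 389.

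**Figure D4:**
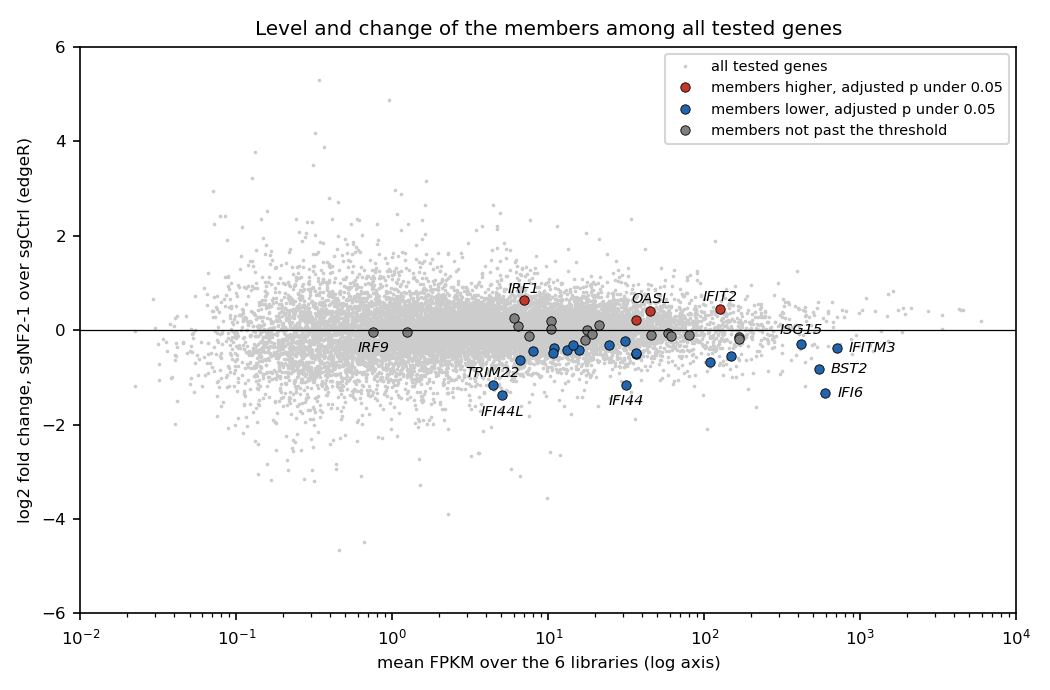
Mean FPKM over the 6 libraries (horizontal log axis) and edgeR log2 fold change (vertical axis) of all tested genes in light gray and of the members in color. The most abundant members, *IFI6*, *IFITM3*, *BST2* and *ISG15*, are all below 0, and members of middle level lie on both sides, from *IFI44L* at -1.38 to *IRF1* at 0.63.

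A list of 97 other genes of the pathway was read in the same fit. Of the 69 tested, 25 fell (36.2%, against 16.6% of all tested genes), 8 rose (11.6%, against 17.7%) and 36 did not pass the test, with a median log2 fold change of -0.13. Under the rule of the study's methods, applied to edgeR values, 13 were lower (18.8%, against 10.8%) and 3 higher (4.35%, against 9.22%). The interferons themselves were almost unread. Of 21 interferon genes, 17 had no count in any library, and the other 4 had 22 counts in all, at most 4 in a library. *IFNB1* had 2, 3 and 4 counts in sgCtrl and 1, 3 and 2 in sg*NF2*-1, *IFNL1* had 1 count in each sgCtrl library and none in sg*NF2*-1, and *IFNA4* and *IFNA6* had 2 counts each in sgCtrl replicate 3. None could be tested, and a count of 0 in the smallest library allows up to 3 counts, or 0.203 CPM (counting error only). *CDKN2A*, *CDKN2B* and *MTAP*, neighbors of the type I interferon genes on chromosome 9, also had no count in any library, while *KLHL9*, within the cluster, had 30.3 and 28.8 CPM.

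Receptor transcripts were lower where they could be measured well. *IFNAR1* had 1138, 1125 and 1071 counts in sgCtrl and 1015, 869 and 698 in sg*NF2*-1 (log2 fold change -0.37 ± 0.09, adjusted p = 0.0022), and *IFNGR1* had 713, 788 and 793 counts in sgCtrl and 690, 525 and 553 in sg*NF2*-1 (log2 fold change -0.38 ± 0.10, adjusted p = 0.0045). *IFNGR2*, with 915 to 1082 counts in sgCtrl and 782 to 941 in sg*NF2*-1, passed only narrowly (log2 fold change -0.24 ± 0.09, adjusted p = 0.049), and the call was lost in DESeq2 (adjusted p = 0.073), without a filter (adjusted p = 0.12), and without sgCtrl replicate 2 or 3 or any one of the sg*NF2*-1 libraries (edgeR adjusted p of 0.097, 0.21, 0.15, 0.11 and 0.076, in that order). On the FPKM scale the call of *IFNGR2* was lost too (limma adjusted p = 0.062). *IFNAR2* had 23 to 30 counts in sgCtrl and 12 to 21 in sg*NF2*-1 (log2 fold change -0.80 ± 0.37, adjusted p = 0.093), passing the test only when at least 10 counts were asked of every library (edgeR adjusted p = 0.047). *IL10RB* had 11 to 16 counts in sgCtrl and 1 to 21 in sg*NF2*-1 (log2 fold change -0.36 ± 0.55, adjusted p = 0.65), and *IFNLR1*, with 2 to 7 counts, was not tested. The kinase genes *JAK1* (log2 fold change -0.13 ± 0.08, adjusted p = 0.24) and *TYK2* (log2 fold change 0.05 ± 0.09, adjusted p = 0.73) did not pass the test.

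Of 5 inhibitors of the pathway, 3 fell, where 16.6% of all tested genes did. *SOCS1*, which blocks JAK activity, had 159, 160 and 150 counts in sgCtrl and 63, 52 and 60 in sg*NF2*-1, from 9.91 ± 0.171 to 3.72 ± 0.439 CPM (log2 fold change -1.41 ± 0.18, adjusted p = 8.2e-07). *SOCS3* had 671, 742 and 661 counts in sgCtrl and 452, 377 and 350 in sg*NF2*-1 (log2 fold change -0.81 ± 0.10, adjusted p = 6.2e-07), and *PIAS1* had a log2 fold change of -0.41 (edgeR adjusted p = 0.010). *SOCS1* and *SOCS3* are themselves induced by cytokines through STATs. Their groups did not overlap.

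In nucleic acid sensing and relay, 4 of 13 tested genes fell (30.8%, against 16.6% of all tested genes) and 2 rose (15.4%, against 17.7%). *TMEM173*, which encodes STING, had 2403, 2496 and 2267 counts in sgCtrl and 1727, 1464 and 1395 in sg*NF2*-1, from 151 ± 1.67 to 97.0 ± 1.85 CPM (log2 fold change -0.64 ± 0.08, adjusted p = 6.4e-07). The kinase genes *IKBKE* (-0.47) and *TBK1* (-0.34) fell on the log2 scale. *TRIM25*, a ubiquitin ligase that activates RIG-I, had 2863, 3434 and 2771 counts in sgCtrl and 5951, 5203 and 4584 in sg*NF2*-1. It rose from 191 ± 15.6 to 332 ± 9.11 CPM with no overlap of the groups (log2 fold change 0.80 ± 0.08, adjusted p = 4.0e-08). *TICAM1*, the adaptor of TLR3, rose by 0.32 on the log2 scale.

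A further 30 interferon-stimulated genes, 28 of them tested, split into 8 that fell (28.6%, against 16.6% of all tested genes), 6 that rose (21.4%, against 17.7%) and 14 that did not pass. Their median log2 fold change was 0.01, with 15 of 28 above 0, beside -0.21 in the 41 members. *GBP2*, a guanylate-binding GTPase, had 236, 229 and 239 counts in sgCtrl and 119, 63 and 73 in sg*NF2*-1, the largest fall of this set (log2 fold change -1.47 ± 0.17, adjusted p = 2.0e-07). *UBA7*, which encodes the activating enzyme for ISG15, fell from 34.2 ± 4.21 to 18.7 ± 2.06 CPM (log2 fold change -0.87 ± 0.12, adjusted p = 3.1e-06). The death ligand gene *TNFSF10* (-0.71), *GBP4* (-0.63), *APOL1* (-0.60), *TRIM5* (-0.59), *RTP4* (-0.55) and *GBP1* (-0.45) fell too, with log2 fold changes in parentheses. *GBP1*, *GBP2* and *GBP4* lie close together (chr1:89052319-89198932), on the same chromosome as *IFI44L* and *IFI44*. Whether the level of that region took part in their falls was not tested. The call of *RTP4* was lost in DESeq2 (adjusted p = 0.059) and without sgCtrl replicate 2 or 3 or sg*NF2*-1 replicate 1 or 2 (edgeR adjusted p of 0.077, 0.052, 0.096 and 0.064, in that order). *LAMP3* had 67, 56 and 33 counts in sgCtrl and 211, 155 and 114 in sg*NF2*-1 and rose from 3.28 ± 1.04 to 10.0 ± 1.99 CPM (log2 fold change 1.61 ± 0.22, adjusted p = 2.2e-06), and *SLFN5* rose from 188 ± 14.5 to 270.4 ± 18.1 CPM (log2 fold change 0.53 ± 0.08, adjusted p = 2.6e-05). The others that rose were *PARP12*, *TRIM14*, *HELZ2* and *PML*, by 0.22 to 0.31. *CXCL10* and *CXCL11*, chemokines that strong interferon signaling induces, had 0 to 3 counts per library and were not tested.

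Of 12 genes of HLA class I and antigen processing, 6 fell and none rose, where 16.6% of all tested genes fell and 17.7% rose. *B2M*, the shared light chain, had 131985, 136641 and 151046 counts in sgCtrl and 116309, 93315 and 98746 in sg*NF2*-1 and fell by 0.44 on the log2 scale (edgeR adjusted p = 0.0010). *HLA-B* (-0.29), *HLA-C* (-0.36), *HLA-F* (-0.52) and *TAPBP* (-0.42) fell, whereas *TAP1* (0.06), *PSMB8* (0.13) and *PSMB9* (0.06) did not pass the test. The HLA genes are close in sequence and polymorphic, and counts of single HLA genes are uncertain.

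**Figure D5:**
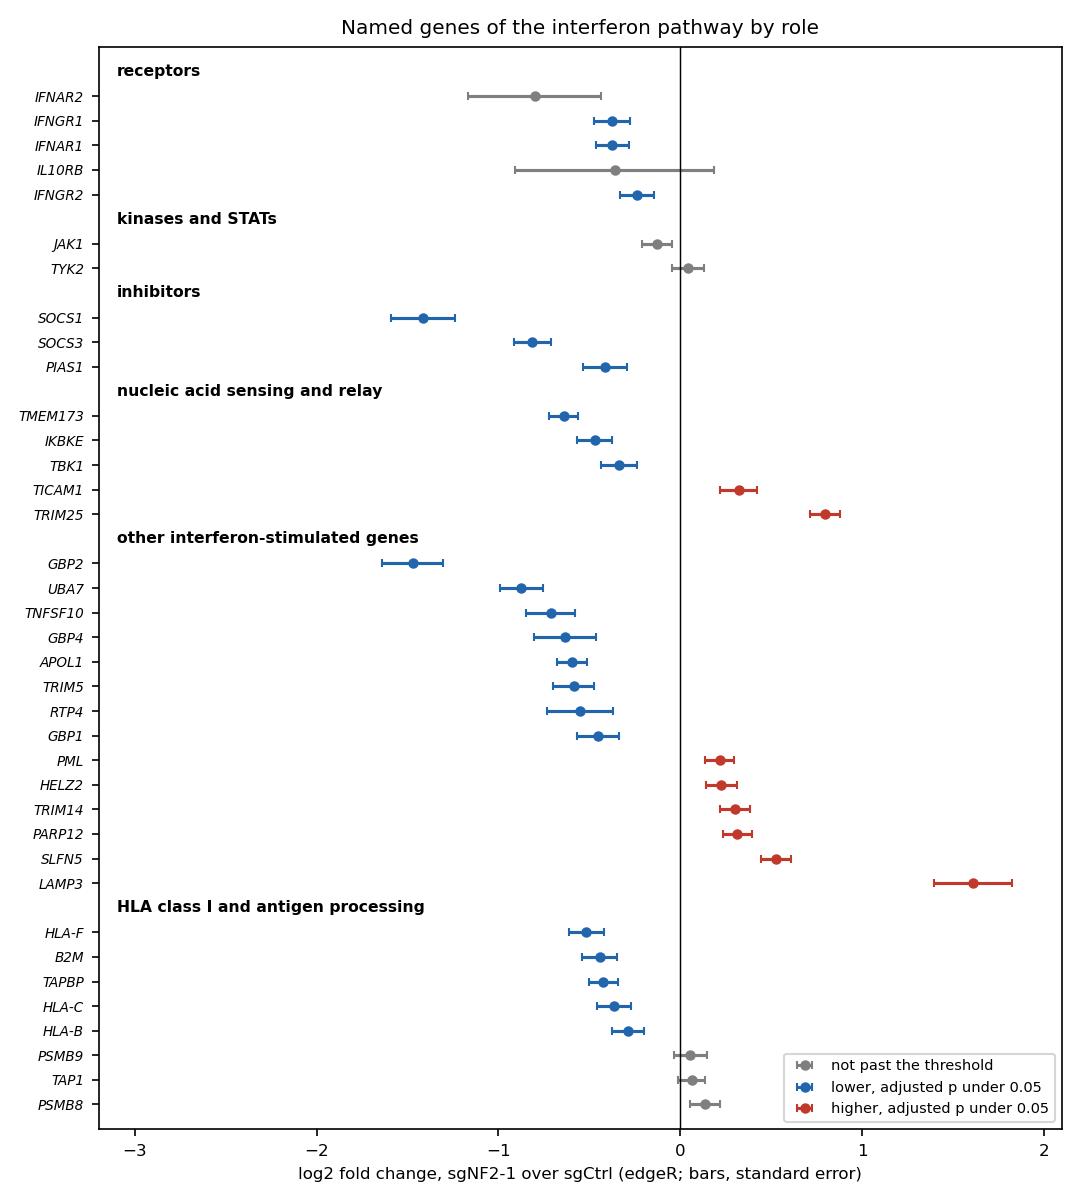
Log2 fold change (horizontal axis, edgeR, sg*NF2*-1 over sgCtrl) with its standard error, grouped by role. Shown are the tested genes of the pathway list that the text names, except *KLHL9*. Genes in blue fell, among them *SOCS1* and *GBP2*, and the 8 in red rose, with *LAMP3* at 1.61 farthest to the right.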

How the data were processed

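Total RNA of H2452 cells was sequenced in 6 libraries as 150 bp paired-end reads on a NovaSeq instrument, with group and replicate as the titles give them. Raw counts and FPKM were deposited by the authors, 1 value per gene and library. The submitters' processing notes name HISAT2, StringTie 1.3.3b, featureCounts 1.5.0-p3 and hg38, and coordinates are those of the deposited table. Whether counting used strand is not given in the sources used here, and reads of overlapping genes on opposite strands cannot be told apart.

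Counts were filtered with edgeR 4.0.16 (filterByExpr, minimum count 10, minimum total 15), scaled by TMM and tested with its quasi-likelihood method, with group as the only term, in R 4.3.3. Benjamini-Hochberg adjustment covered all 14179 tested genes, and genes with an adjusted p under 0.05 are called. FPKM were tested with limma 3.58.1 on log2(FPKM + 1) for genes with a mean of at least 0.5, a scale that understates changes of low genes. The study used DESeq2, run here in version 1.42.0 as an alternative. An exact permutation test of 3 libraries against 3 cannot give a p below 0.10 and was not used. The scripts were tested on simulated data.

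The members, the pathway and marker lists and the rules were chosen with earlier results of these data known. Every member is named with its counts, and full statistics are given for called members and those with a mean of at least 10 CPM. Of the pathway list, called genes with a log2 fold change beyond 0.5, detected ligands, receptors, *JAK1* and *TYK2* are named by rule, and others were named after their values were seen. Some results that these rules select are not reported here. Alternatives were DESeq2, its size factors, library totals, a replicate block, omission of each library, no filter or a minimum of 10 counts per library, the study's threshold and, for FPKM, a pseudocount of 0.1 and no filter. Libraries of 1 group differed by more than sampling noise (chi-square per degree of freedom 5.12 to 12.5 within groups and 40.0 to 52.6 between groups). Promoters were matched by RefSeq symbol or synonym.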

Additional observations from a re-analysis of the deposited data

How the results depend on the processing

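Under the rule of the study's methods, applied to edgeR values, the members gave 8 lower and 1 higher in place of 20 and 4. The pathway list gave 13 lower and 3 higher in place of 25 and 8, since that rule adds a fold limit. On the FPKM scale 17 lower members became 9 without a filter on low values and 10 to 15 when 1 library was left out, with 10 without sgCtrl replicate 2 and 11 without sg*NF2*-1 replicate 2. The cause was not tested. The other counts stayed within 1.5 times their value under every alternative run. Genes whose direction turned were all without a call. For *IRF9*, *IFIT5* and *MX2* the log2 fold change became 0.0013 with the replicate block, -0.015 with library totals and -0.0021 with library totals. Leaving out 1 library gave -0.28 to 0.28 for *IRF9*, -0.23 to 0.10 for *HERC5*, -0.16 to 0.0016 for *IFIT1*, -0.029 to 0.044 for *IFIT5*, -0.040 to 0.071 for *MX2*, -0.22 to 0.051 for *SAMD9*, -1.28 to 0.13 for *IL10RB* and -0.014 to 0.10 for *TYK2*. The low counts of *IRF9* and *IL10RB* limit both.

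Whether libraries with the same replicate number belong together is not given, and 3 libraries per group cannot decide it. Their deviations from the group means correlated at -0.04, 0.07 and 0.06 across genes. Libraries with different numbers correlated at -0.13 to 0.08. Over all tested genes, the replicate number as a block gave 2698 higher and 2501 lower, against 2515 and 2351 without it. With the replicate number as a block, 21 members were lower and 4 higher, and all 20 and 4 of the calls without it remained.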
